A study of Mus musculus with 6 samples.

Results

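Genes of motile cilia, comprising their transcriptional regulators and the parts of the axoneme, were examined in the floor plate and the adjacent ventral lateral region of the mouse midbrain. Members were all probe sets annotated to a single gene symbol that names an axonemal dynein, a dynein assembly factor, a radial spoke protein, a tektin, a component of the dynein regulatory complex or a cilia and flagella associated protein (Cfap), together with 15 genes listed by name. This gave 121 probe sets of 73 genes, out of 45101 probe sets on the array, 34945 of which carry 1 symbol for 18193 genes. The members were ordered by part, with 7 probe sets of 3 regulators, 37 of 21 dynein arm genes, 7 of 6 radial spoke genes and 70 of 43 other genes.

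The tissue came from C57BL/6 embryos of mixed sex at embryonic day 10.5, with no allele or treatment named in the labels. The floor plate lines the ventral midline of the neural tube, and the ventral lateral piece was cut beside it without overlap. Each region had 3 samples, each from the pooled tissue of 6 embryos. From each, 5 ng of total RNA was amplified, labelled with biotin and hybridised to an Affymetrix mouse array. No label ties a pool of one region to the embryos of the other, and the p-values cover only the spread among these 6 samples, which may be technical. Each deposited value is a log ratio to that probe set's median across the 6 arrays, which shows how samples differ and not how strongly a gene is expressed. No source gives the log base or the sign, and log2, with higher meaning more RNA, was assumed. When the groups do not overlap, this centring places the lowest floor plate value and the highest ventral lateral value at the same distance on either side of 0, as it did for each of the 22 probe sets called below. Differences between arrays are not altered by it.

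Motile cilia beat by means of an axoneme of microtubule doublets around a central pair. Outer and inner dynein arms drive sliding of the doublets, radial spokes and the central pair coordinate it, and the nexin link, which holds the dynein regulatory complex, restrains it. Dynein arms are put together in the cytoplasm by assembly factors before they enter the cilium. Foxj1, a forkhead transcription factor, is the main regulator of this programme, and RFX factors such as Rfx2 and Rfx3 act with it through a promoter element called the X-box. Foxj1 is known to be expressed in the floor plate of vertebrate embryos. Several Cfap genes in the set, among them Cfap20, Cfap36 and Cfap410, are also used outside motile cilia.

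The promoters of the members bear on this element, and those of 5 genes that were higher in floor plate are printed as examples. They are RefSeq windows of build GRCm38.p6, 250 bases before to 50 bases after an annotated start, 5′ to 3′ on the gene's strand. Capitals mark matches to the RFX half-site GTTGCC or to either X-box form searched, on both strands. The longer form is GTTNCC, any 2 bases and GGNAAC, which makes 14 letters, and the shorter, of 13 letters, ends in GNAAC instead. Where a gene has several starts, the window with the most matched bases is shown, or the first listed.
Fam183b, chr11:58801911-58802210, minus strand: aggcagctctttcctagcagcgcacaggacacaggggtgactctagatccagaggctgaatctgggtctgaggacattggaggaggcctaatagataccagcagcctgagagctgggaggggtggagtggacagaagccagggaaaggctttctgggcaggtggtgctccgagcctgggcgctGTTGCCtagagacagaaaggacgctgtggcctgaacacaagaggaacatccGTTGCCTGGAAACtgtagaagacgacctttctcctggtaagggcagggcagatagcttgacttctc
Enkur, chr2:21205316-21205615, minus strand: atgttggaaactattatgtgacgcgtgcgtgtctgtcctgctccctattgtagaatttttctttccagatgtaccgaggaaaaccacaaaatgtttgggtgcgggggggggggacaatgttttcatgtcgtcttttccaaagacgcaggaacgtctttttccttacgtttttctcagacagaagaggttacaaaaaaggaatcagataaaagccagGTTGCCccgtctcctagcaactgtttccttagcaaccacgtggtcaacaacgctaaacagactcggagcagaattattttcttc
Pifo, chr3:106001448-106001747, minus strand: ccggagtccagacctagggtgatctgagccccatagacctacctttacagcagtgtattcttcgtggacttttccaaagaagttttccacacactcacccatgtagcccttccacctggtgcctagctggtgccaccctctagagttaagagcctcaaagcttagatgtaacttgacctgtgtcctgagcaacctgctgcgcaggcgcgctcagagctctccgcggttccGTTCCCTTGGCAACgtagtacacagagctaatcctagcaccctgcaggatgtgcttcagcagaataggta
Drc1, chr5:30281143-30281442, plus strand: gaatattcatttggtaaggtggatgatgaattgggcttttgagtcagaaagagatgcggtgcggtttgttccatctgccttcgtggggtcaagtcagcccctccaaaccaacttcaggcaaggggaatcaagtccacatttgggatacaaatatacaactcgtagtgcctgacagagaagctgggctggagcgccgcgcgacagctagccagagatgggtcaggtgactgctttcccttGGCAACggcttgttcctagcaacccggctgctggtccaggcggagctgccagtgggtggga
Cfap126, chr1:171113736-171114035, plus strand: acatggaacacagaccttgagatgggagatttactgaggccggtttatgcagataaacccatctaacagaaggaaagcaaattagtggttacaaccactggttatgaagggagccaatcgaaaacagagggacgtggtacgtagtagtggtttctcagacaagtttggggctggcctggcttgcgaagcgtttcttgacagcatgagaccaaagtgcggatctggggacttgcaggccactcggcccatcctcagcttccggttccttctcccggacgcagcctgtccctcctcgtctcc

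The Fam183b window holds a half-site that begins at position -67 from the annotated start and the 13-letter form, which contains a second half-site, at position -16. In Enkur the half-site begins at position -34. The Pifo window has the 14-letter form at position -20, with a half-site inside it, and the Drc1 window a half-site at position -11. No match lies in the Cfap126 window. Promoter windows were found for 62 of the 73 members. The half-site occurred in at least 1 window of 8 of the 19 genes that were higher in floor plate and of 16 of the 43 genes that were not, against 14.1% of 27025 genes. It was present in 12.5% of all 32851 windows. The 14-letter form was found in 1 of the 19 and 3 of the 43 genes, against 0.529% of all genes. Its 13-letter relative was found in 3 of the 19 and 3 of the 43, against 0.777%. Matches of the half-site can lie inside either form, as in Fam183b and Pifo. A forkhead motif, TGTTTAC, was in 1 of the 19 and 4 of the 43 genes, against 4.05% of all. These 4 letter patterns were kept after others for the same factors had been tried, and a match is a description of letters, not a bound site. The half-site share was thus 42.1% in members with a call and 37.2% in those without.

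Motile cilia genes were higher in the floor plate wherever they passed the test. Of the 121 probe sets 22 were higher and 0 lower (limma, Benjamini-Hochberg adjusted p under 0.05 over all 45037 probe sets tested), which is 18.2%, beside 2.70% of all probe sets called higher, 2.01% called lower and 4.71% called in either direction. At an unadjusted p under 0.05 there were 35 higher and 4 lower members, beside 3770 higher and 3658 lower among all 45037 probe sets. The 22 belonged to 22 of the 73 genes, whereas 4.58% of all genes had a probe set called higher and 3.25% one called lower. Of the 121 probe sets, 14 were called and at least 2-fold higher, against 1.37% of all probe sets. Among probe sets called higher, 14 of the 22 members and 615 of all 1218 were at least 2-fold higher. The largest differences were those of Fam183b, Enkur, Cfap126 and Foxj1, between 9.47-fold and 20.9-fold. The median difference over all members was 0.18 on the log2 scale, against -0.0040 over all probe sets, and 91 of 121 members had a positive difference, against 49.2%. All 3 floor plate arrays lay above all 3 ventral lateral arrays for 38 members, against 11.5% of all probe sets, and below them for 3, against 11.0%. In bulk tissue fewer cells of a type and less RNA per cell cannot be told apart. Leaving out floor plate replicate 1 reduced the higher members to 13, and leaving out ventral lateral replicate 3 to 14; with any other sample left out there were 15 to 20.

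**Figure D1:**
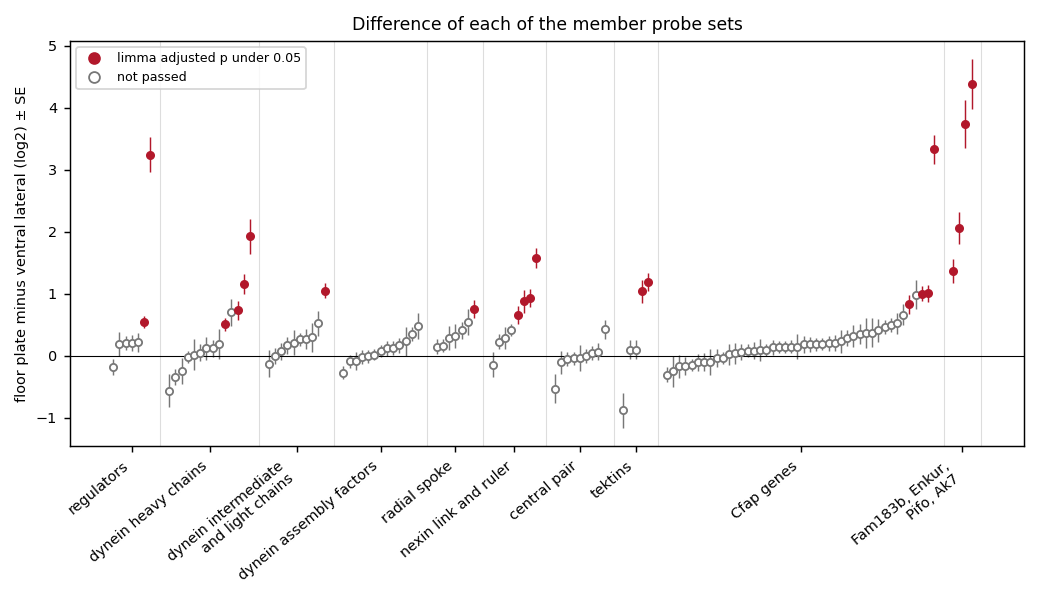
Difference between floor plate and ventral lateral samples on the log2 scale (vertical axis, ± SE) for each of the 121 member probe sets, ordered within groups of related genes (horizontal axis). The 22 filled points passed the test and all lie above 0, while open points did not pass and lie between -0.88 and 0.99.

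Of the regulators, Foxj1 and 1 of the 4 probe sets of Rfx2 were higher in floor plate, while Rfx3 did not pass. Foxj1 read 1.22, 1.21 and 1.47 on the floor plate arrays of replicates 1 to 3 and -2.38, -1.21 and -2.23 on the ventral lateral arrays. The groups were far apart, and ventral lateral replicate 2 was the least low of its group. This made Foxj1 9.47-fold higher in floor plate (log2 difference 3.24, SE 0.29, limma adjusted p = 0.000988), with a range of 3.02 to 3.61 when any 1 sample was left out. The called probe set of Rfx2 read 0.38, 0.20 and 0.28 against -0.20, -0.32 and -0.27, with separate groups. Its log2 difference was 0.55 (SE 0.10, limma adjusted p = 0.0189). The other 3 probe sets of Rfx2 gave 0.21, 0.18 and -0.18 with overlapping groups, and the mean of all 4 did not pass (0.19, limma adjusted p = 0.271). Leaving out 1 sample kept the Rfx2 call in 1 of 6 fits. Both probe sets of Rfx3, whose product is likewise needed for cilia, differed by 0.20 and 0.21 with adjusted p of 0.471 and 0.595, and their groups overlapped.

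**Figure D2:**
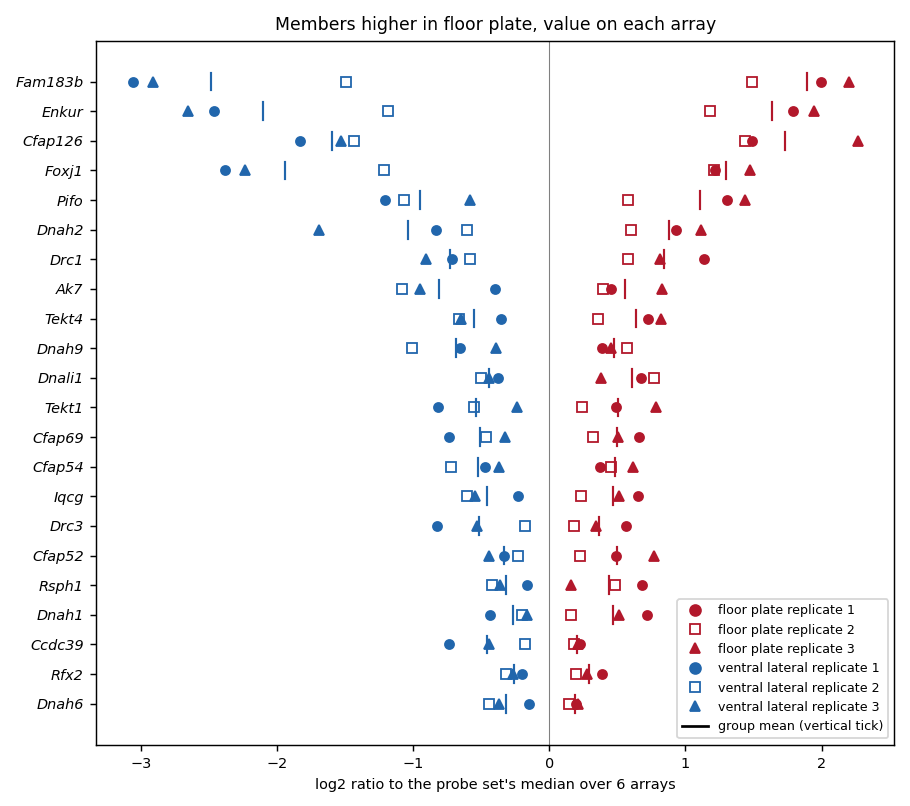
Log2 ratio to the probe set's median over the 6 arrays (horizontal axis) for the 22 member probe sets that were higher in floor plate (vertical axis, sorted by difference), with 1 symbol per array and a tick at each group mean. Floor plate replicate 2 (open red square) is the lowest floor plate array in 18 of the 22, and the 4 genes at the top span the widest range.

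Dynein arm genes were higher for 5 of 21 genes, namely the heavy chains Dnah2, Dnah9, Dnah1 and Dnah6 and the inner arm light intermediate chain Dnali1. Heavy chains are the motors of the arms, with Dnah9 in outer arms and Dnah1, Dnah2 and Dnah6 in inner arms. Dnah2 read 0.93, 0.60 and 1.11 in floor plate and -0.83, -0.60 and -1.69 in ventral lateral samples. It was 3.79-fold higher (log2 difference 1.92, SE 0.28, limma adjusted p = 0.0080), but its second probe set was at -0.02 with overlapping groups. Dnah9 values were 0.39, 0.57 and 0.45 against -0.66, -1.01 and -0.39, which separates the regions with the floor plate arrays close together. The log2 difference was 1.16 (SE 0.16, limma adjusted p = 0.0067), and the other Dnah9 probe set, at 0.70, had separate groups without passing (adjusted p = 0.143). Dnali1 read 0.67, 0.77 and 0.38 against -0.38, -0.50 and -0.44. The groups were separate and the ventral lateral arrays had an SD of 0.06, giving a log2 difference of 1.05 (SE 0.12, limma adjusted p = 0.00333). Its other probe set was at 0.52, with ventral lateral replicate 1 (0.05) among the floor plate values. Dnah1 (log2 difference 0.73, adjusted p = 0.0438) and Dnah6 (0.51, adjusted p = 0.0407) lay just inside the threshold and passed in 1 of 6 fits that left out a sample. Dnah1 also did not pass with array weights.

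Among the members, outer arm components other than Dnah9 did not pass. The outer arm heavy chain genes Dnah5 and Dnah11 differed by 0.02 and 0.05, and the intermediate chain genes Dnaic1 and Dnaic2 by -0.13 to 0.29 over 4 probe sets. Dnah5 ventral lateral values ran from -0.63 in replicate 2 to 0.41 in replicate 3, so the spread within that region exceeded the difference. Dnah8, a heavy chain best known from sperm, was at -0.34 and -0.57 on its probe sets with overlapping groups. Without ventral lateral replicate 2 the second of these passed as lower (-0.89, limma adjusted p = 0.034). None of the 13 probe sets of the 6 dynein assembly factors passed, with a median difference of 0.07. Among all probe sets 2.70% were called higher and 2.01% lower, so a count of 0 among 13 is near the background. Their largest values were those of Lrrc6, at 0.48 and 0.35, where all floor plate arrays lay above all ventral lateral arrays (adjusted p of 0.316 and 0.167). Centred values hold no signal level, so it cannot be said whether a probe set near 0 reads a gene that is equal in both regions or one that is not expressed.

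Radial spoke genes had positive differences on 7 of 7 probe sets, against 49.2% of all probe sets. Of the 7, 1 passed as higher, beside 2.70% of all. Rsph1, a protein of the spoke head, read 0.68, 0.48 and 0.16 in floor plate and -0.16, -0.42 and -0.36 in ventral lateral samples. It was 1.69-fold higher (log2 difference 0.76, SE 0.15, limma adjusted p = 0.0316), and the call was kept in 1 of 6 fits without a sample. The spoke head genes Rsph9 and Rsph4a were at 0.54 (adjusted p = 0.264) and 0.41 (adjusted p = 0.179), the second with separate groups. Rsph3a, of the spoke stalk, was at 0.31 and 0.16, Rsph6a at 0.28 and Rsph14 at 0.15, each with overlapping groups. The median of the 7 was 0.31.

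Among the other members, 14 of 43 genes were higher, and the genes with the widest separation of all members were here. Fam183b, a gene known from motile ciliated cells, read 1.997, 1.49 and 2.20 in floor plate and -3.06, -1.49 and -2.91 in ventral lateral samples. The groups were far apart, with replicate 2 of each region nearest to the other region. Fam183b was 20.9-fold higher (log2 difference 4.38, SE 0.40, limma adjusted p = 0.0012). Enkur encodes enkurin, an axonemal protein that binds calmodulin. It read 1.79, 1.18 and 1.94 against -2.46, -1.18 and -2.66, and replicate 2 again lay nearest to the other region. The log2 difference was 3.74 (SE 0.38, limma adjusted p = 0.00197), or 13.3-fold. Cfap126, also called Flattop and known for the placing of basal bodies, read 1.49, 1.44 and 2.27 against -1.83, -1.44 and -1.53. Here the ventral lateral arrays were close together and floor plate replicate 3 was the highest, and the difference was 10.1-fold (log2 3.33, SE 0.23, limma adjusted p = 0.000338). Pifo, encoding the ciliary protein pitchfork, read 1.31, 0.58 and 1.44 against -1.21, -1.07 and -0.58. It was 4.17-fold higher (log2 difference 2.06, SE 0.25, limma adjusted p = 0.00397). The adenylate kinase gene Ak7, whose product interconverts adenine nucleotides, was at 0.45, 0.40 and 0.82 against -0.40, -1.08 and -0.95. Its values did not overlap and it was 2.58-fold higher (log2 difference 1.37, SE 0.20, limma adjusted p = 0.0084).

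Of the 5 genes of the nexin link and of the ruler proteins that set the axonemal repeat, 4 were higher, with a median of 0.54 over 8 probe sets. Drc1, which anchors the dynein regulatory complex, read 1.13, 0.58 and 0.81 against -0.71, -0.58 and -0.90. The regions were well apart on every array, with a log2 difference of 1.57 (SE 0.16, limma adjusted p = 0.00184). Iqcg, another protein of this complex, was at 0.93 (SE 0.15, limma adjusted p = 0.0129) and Drc3 at 0.87 (adjusted p = 0.0361), but the second Drc3 probe set was at -0.15. The ruler gene Ccdc39 was at 0.66 on the probe set closest to the threshold (adjusted p = 0.0457) and at 0.28 and 0.23 on the others. When 1 sample was left out, Drc1 passed in 6 of 6 fits, Iqcg in 3, and Drc3 and Ccdc39 in 1 each, and with array weights Drc3 and Ccdc39 did not pass. Its partner Ccdc40 was at 0.41 with separate groups and did not pass (adjusted p = 0.0734).

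Tektins, filament proteins inside the doublets, did not move as one. Tekt4 was at 1.19 (SE 0.15, limma adjusted p = 0.00463) and Tekt1 at 1.04 (SE 0.19, limma adjusted p = 0.0212). With 1 sample left out, Tekt4 passed in 6 of 6 fits and Tekt1 in 2. Tekt3 and Tekt5 differed by 0.10 and 0.09 with overlapping groups. Tekt2 read -0.0017, -1.08 and -1.04 in floor plate and 0.38, 0.0017 and 0.15 in ventral lateral samples, so the groups were separate and 2 floor plate arrays were far below the rest. The log2 difference of -0.88 did not pass with all samples (adjusted p = 0.154), and passed as lower without floor plate replicate 1 (-1.24, limma adjusted p = 0.0104). None of the 9 probe sets of the central pair genes Spag6, Spag16, Spag17 and Hydin passed. With 2.70% of all probe sets called higher and 2.01% lower, a count of 0 among 9 is near the background. The median difference of the central pair probe sets was -0.03, with Spag6 at -0.54 (adjusted p = 0.307) and 1 probe set of Spag16 at 0.42 (adjusted p = 0.212).

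Of the 25 Cfap genes 4 were higher, with a median of 0.16 over their 44 probe sets. Besides Cfap126 these were Cfap69 (1.004, adjusted p = 0.00714), Cfap54 of the central apparatus (1.001, adjusted p = 0.00428) and Cfap52, a protein of the doublet lumen (0.83, adjusted p = 0.0208). Cfap52 passed in 3 of 6 fits with a sample left out, and the other 3 genes in 6 of 6. Cfap298 lay just outside the threshold on 2 of its 4 probe sets, at 0.50 and 0.46 (adjusted p of 0.0561 and 0.0562), while another was at -0.31. The Cfap genes also used outside motile cilia, Cfap20, Cfap36 and Cfap410, were at 0.14 to 0.19. The rule for named genes chose those with the largest differences in each part, those next to the threshold and those whose probe sets disagree. Iqcg, Tekt1, Tekt4 and Cfap52, and the members named here that did not pass, other than the regulators, Cfap298 and those whose probe sets disagree, were named after their values were seen.

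No gene with several probe sets passed on all of them. Of the 33 such members 10 had a call, each on 1 probe set, so that 10 of their 24 probe sets passed. In 6 of the 10, Dnah1, Dnah2, Cfap54, Cfap69, Drc3 and Rfx2, at least 1 other probe set differed by less than 0.2 in size. Cfap69 had a second probe set at 0.99 (adjusted p = 0.061) and another at -0.11. Among the 40 members with a single probe set 12 were called, including 5 of the 6 largest differences over all members. When the probe sets of a gene were averaged and 18193 genes tested, 18 of the 22 genes kept their call, Ccdc39, Dnah1, Drc3 and Rfx2 did not pass, and Ccdc40 passed (limma adjusted p = 0.0343), which gave 19. With the lowest-numbered probe set of each gene 16 were kept and Cfap298 passed (limma adjusted p = 0.0422), which gave 17. With the probe set of the largest variance, a choice that favours probe sets that differ, 22 of the 22 were kept.

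**Figure D3:**
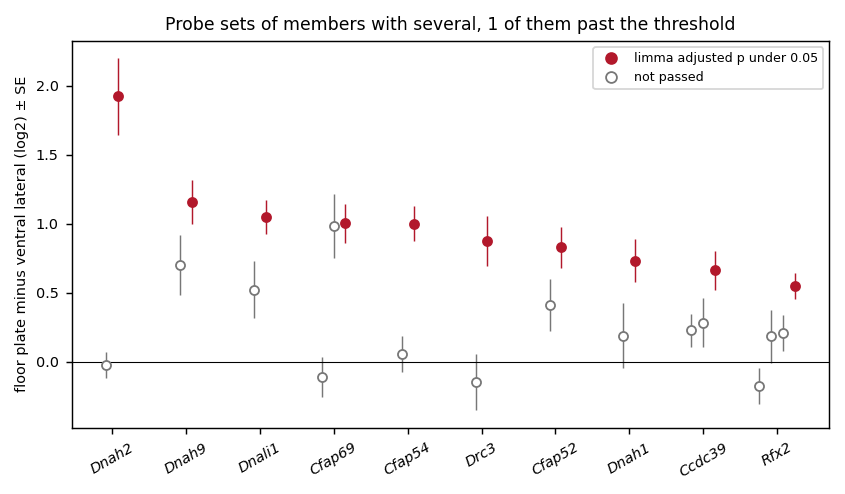
Difference between floor plate and ventral lateral samples (vertical axis, log2 ± SE) for every probe set of the 10 genes that have several and 1 past the threshold (horizontal axis). Dnah2 spans 1.92 to -0.02, whereas the probe sets of Dnah9 and Dnali1 all lie above 0.5.

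The arrays within a region were not alike for these genes. Floor plate replicate 2 was the lowest floor plate array for 18 of the 22 called members, against 43.2% of all 1218 probe sets called higher. The mean of the 22 was 0.80, 0.55 and 0.85 on the floor plate arrays. Markers of the floor plate, among them Foxa2, Corin and Lmx1a, did not follow this order, with means of 0.84, 0.89 and 0.88. On the ventral lateral arrays the 22 averaged -0.88, -0.69 and -0.86 and the floor plate markers -1.28, -0.76 and -1.55, so replicate 2 was the least low in both. Ventral lateral replicate 2 was the highest of its group for 9 of the 22 members and for 56.4% of all probe sets called higher. These means describe probe sets chosen by the same comparison and carry no test.

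Of the marker probe sets of the floor plate 19 of 24 were higher in floor plate, against 2.70% of all probe sets. Of those of the ventral lateral midbrain 20 of 25 were lower, against 2.01%. The marker lists were chosen with earlier results of these data known, so these counts are no independent check of the dissection. Shh, the signal secreted by the floor plate, was at 1.76 on 1 probe set and did not pass (adjusted p = 0.0734), and its other probe set was at 0.16. Markers of other tissues that could lie in the pieces were also read. By limma 0 of 4 notochord, 0 of 15 blood and 0 of 17 surface ectoderm probe sets passed. Each list had 1 higher and surface ectoderm also 2 lower at an unadjusted p under 0.05, beside 3770 and 3658 of all 45037 probe sets. The notochord probe sets were of Nog, Chrd and Cdx2, since the listed T and Noto had none under those symbols. Nog was at 0.55 with separate groups (limma adjusted p = 0.142). In floor plate 1 of 24 mesenchyme probe sets was higher (Twist1, 2.11, limma adjusted p = 0.00724), beside 2.70% of all probe sets. Of 9 endothelial probe sets 1 was lower (Cldn5, -0.68, limma adjusted p = 0.0227), beside 2.01% of all. Of 9 neural crest probe sets 3 were lower, all of Tfap2a, while those of Sox10, Erbb3 and Foxd3 did not pass. Of 25 neuronal probe sets 4 were lower, with a median of -0.42. There were 13 lower at an unadjusted p under 0.05, beside 3658 of all 45037 probe sets. All floor plate arrays lay below all ventral lateral arrays for 13, against 11.0% of all probe sets. Choroid plexus, which bears motile cilia, was covered by 12 probe sets of 7 roof plate and choroid plexus genes, of which 1 was higher (Folr1, 4.30, adjusted p = 0.00282). At an unadjusted p under 0.05 there were 6 higher and 0 lower of these 12, beside 3770 and 3658 of all 45037 probe sets. All floor plate arrays lay above all ventral lateral arrays for 6, against 11.5% of all probe sets. They lay below for 1, against 11.0%. The plexus gene Ttr was at 0.38 to 1.09 on 4 probe sets (adjusted p of 0.0909 to 0.160), and the list mean was 0.57, 0.36 and 0.24 on the floor plate arrays against -0.38, -0.10 and -0.49. Which of these markers are at background cannot be read from centred values, and their part in the values of the cilia genes was not tested.

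Other genes of motile cilia, taken from a list made with the member results of this series in view, gave similar shares. Of 138 probe sets of 93 genes 23 were higher (16.7%) and 1 lower, with a median of 0.16. Among genes for docking and assembly of dynein arms, 5 of 19 were higher, led by Dnajb13, a co-chaperone of the axoneme (log2 difference 3.16, SE 0.20), the assembly factor gene Zmynd10 (1.73, SE 0.12) and the docking gene Ttc25 (1.38, SE 0.14). Their limma adjusted p were 0.000321, 0.000344 and 0.00185. Zmynd10 thus passed, while 0 of 13 probe sets of the assembly factors among the members did, a count near the background. The difference between them was not tested. Of 22 further genes of the nexin link, spokes and central pair, 5 were higher, led by Armc3, at 2.89 and 1.97 on its probe sets, the spoke gene Nme5 (1.75) and the kinesin gene Kif27 (1.33). Of 36 microtubule inner and other axonemal genes, 9 were higher, led by Capsl (3.11), Efcab1 (2.62 and 2.35), Erich2 (1.86) and Mlf1 (1.25). Efcab1, a calcium-binding protein, had another probe set at 0.59 that did not pass. The second probe set of Erich2 was at 0.26 with overlapping groups and did not pass (limma adjusted p = 0.636).

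The programme of multiciliated cells, which build many cilia per cell, was covered in part, by 14 probe sets of 9 genes. Gmnc, Mcidas and Tp73, also on the list, had no probe set under those symbols, so the counts do not cover them. By limma 0 were higher and 1 was lower, beside 2.70% and 2.01% of all probe sets, so a count of 0 among 14 is near the background. At an unadjusted p under 0.05 there were 2 higher and 3 lower, beside 3770 and 3658 of all 45037 probe sets. The median was -0.03. Ccno and Deup1, which serve the mass production of basal bodies, were at -0.11 and 0.0022 with overlapping groups. Myb, a transcription factor of dividing and of multiciliated cells, was the gene that passed, lower at -0.67 (adjusted p = 0.0275), with its other probe sets at -0.37 and -0.31. The difference farthest from 0 was that of Foxn4, a forkhead factor, at -1.07 with all floor plate arrays below all ventral lateral arrays (adjusted p = 0.088). E2f5 was at 0.42, 0.36 and 0.02. Among 7 other regulators of cilia 1 was higher, Rfx4, an RFX factor of the developing neural tube, at 0.67 (SE 0.10, limma adjusted p = 0.00835). The other probe set of Rfx4 was at -0.04 with overlapping groups (limma adjusted p = 0.929). Glis3 had the largest difference among these regulators, at 1.34 with separate groups, and did not pass (limma adjusted p = 0.0585). Whether either list differs from the members was not tested.

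Genes of the primary cilium and of transport within cilia, which nearly all cells of the neural tube use, were set beside the members. Of their 100 probe sets 5 were higher (5.00%) and 0 lower, with a median of 0.07, beside 2.70% higher and 2.01% lower among all probe sets. For the motile cilia genes the count was 22 of 121 and the median 0.18. At an unadjusted p under 0.05 the primary cilium list had 20 higher and 2 lower, beside 3770 and 3658 of all 45037 probe sets. All floor plate arrays lay above all ventral lateral arrays for 23 of its 100 probe sets, against 11.5% of all. A positive difference was found for 67, against 49.2% of all. Among the members these counts were 38 and 91 of 121. Ttc30b, of the intraflagellar transport machinery, had the largest difference, at 1.63 (SE 0.14, limma adjusted p = 0.000933), followed by the transition zone gene Tctn2 (0.79, adjusted p = 0.00608). With any 1 sample left out, 2 or 3 were called. The difference between the lists was not tested.

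**Figure D4:**
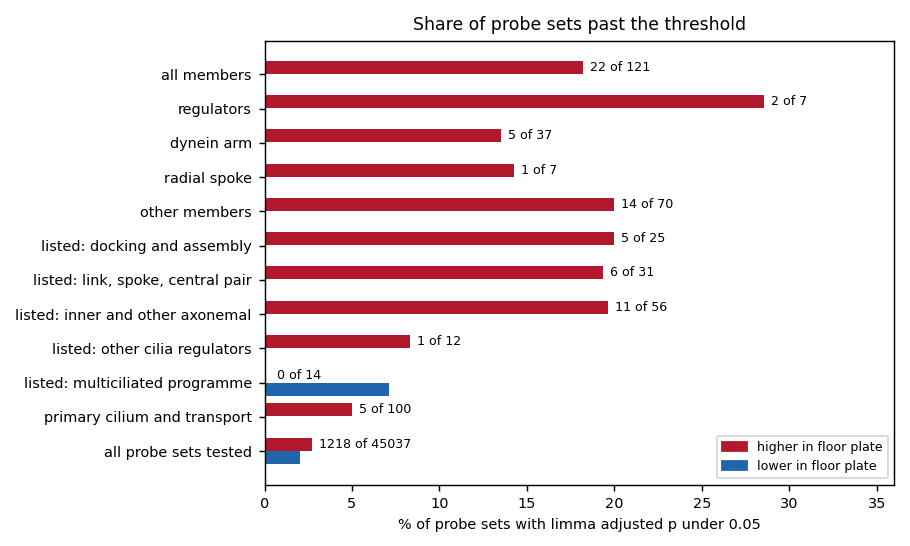
Share of probe sets with a limma adjusted p under 0.05 (horizontal axis, in %, red for higher and blue for lower in floor plate) in the members, their parts, the further lists and all probe sets tested (vertical axis), with the number higher beside each bar. Members reach 18.2% higher against 2.70% of all probe sets, and the multiciliated programme has 0 higher and 1 lower of 14.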

How the data were processed

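Values of 6 Affymetrix arrays were used as deposited in the value table of the series. RMA is named in the submitters' processing notes, without a version. The deposited values were taken as log2 ratios: the 6 values of each probe set have a median within 1e-05 of 0 in 100% of rows, a centring that no source states. Array medians lay between -0.0031 and 0.0045, and precision is limited by how few arrays there are (median SE of a difference 0.13).

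Probe sets were named through GEO's platform annotation, which gave 1 symbol for 34945, several for 932 and none for 9160, beside 64 controls, which were left out. Of those with 1 symbol, 34741 matched a RefSeq gene of GRCm38.p6 by Entrez identifier, and 0 changed name. No source names the submitters' build, so probe sets are given no coordinates; those printed are of RefSeq promoter windows in GRCm38.p6.

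Each of the 45037 probe sets was tested on its own by a linear model with moderated variances (limma 3.58.1, R 4.3.3; floor plate minus ventral lateral, Benjamini-Hochberg adjustment over all, threshold 0.05), with no filter on low values, because centred values hold no level. The fit was tested on simulated data. Alternatives were other thresholds, normalizations and weights, the replicate block, other choices of probe sets and leaving out each sample. Named genes were all regulators, up to 6 higher and 4 lower genes per other part with the largest difference, the 2 probe sets on each side of the threshold, genes whose probe sets disagree, and up to 4 per further list. Members, lists and rules were chosen with earlier results of these data known. Same-numbered samples were not treated as pairs, since no label says that the numbers mark shared embryos. Over all probe sets the correlation of their deviations from the group means was 0.0096, 0.12 and 0.11, without differently numbered samples for comparison. Mesenchyme markers ran in the same order by number in both regions. They averaged -0.34, 0.29 and -0.09 in floor plate and -0.25, 0.25 and 0.05 in ventral lateral samples. Whether the numbers mark a shared source was not tested. Names were joined with pandas 2.3.3 (Python 3.11.15), and matplotlib 3.10.9 drew the plots.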

Additional observations from a re-analysis of the deposited data

How the results depend on the processing

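Counts below are probe sets higher in floor plate, with 22 members (22 genes), 23 of the other motile cilia list and 5 of the primary cilium list as the values reported. A threshold of 0.01 gave 13 (13 genes), 15 and 2, and a 2-fold minimum 14 (14 genes), 15 and 1. A threshold of 0.1 gave 10 for the primary cilium list. The 1 lower probe set of the other motile cilia list became 0 at 0.01, at 2-fold and without probe sets that may cross-hybridise, 3 at 0.1 and 2 with singly named probe sets only. Leaving out 1 sample gave 13 to 20 members (13 to 20 genes), 16 to 21 and 2 to 3, with 0 to 1 lower members (0 to 1 genes) and 0 to 1 lower in the other list. The fits without floor plate replicate 1 (Tekt2) and without ventral lateral replicate 2 (Dnah8) gave the 1 lower member. Of 22 called members 13 passed in all 6 such fits. Alternatives for the other lists were chosen after seeing the data.

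With the replicate number as a block, 19 members of 17 genes were higher, with 21 and 3 in the other lists and 0 lower in the other motile cilia list. Drc3, Ccdc39, Cfap52, Dnah1 and Dnah6 lost their call. Since it is not known whether the numbers mark pairs, this is not read as a weaker effect.

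Of 726 values of the 49 named probe sets under alternatives, 637 kept direction and side of the threshold and 4 reversed, all on probe sets that had not passed; the cause was not tested. Leaving out 1 sample gave -0.037 (without ventral lateral replicate 1) to 0.19 for Cfap54, -0.11 (without floor plate replicate 1) to 0.37 for Dnah1, -0.072 to 0.012 (without floor plate replicate 2) for Dnah2 and -0.27 to 0.098 (without floor plate replicate 1) for Drc3. Centred values give no signal over background, so what dim probe sets limit is unknown.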
